A study of Bos taurus with 2 samples.

Results

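This section describes 8 genes of the fibroblast growth factor (FGF) pathway in single nuclei of bovine (Bos taurus) blastocysts and blastoids. They are the ligand gene FGF4 (ENSBTAG00000012563), the receptor genes FGFR1 (ENSBTAG00000015457) and FGFR2 (ENSBTAG00000014064), and 5 genes known to respond to the kinase ERK. The latter are ETV4 (ENSBTAG00000008333), ETV5 (ENSBTAG00000014915), DUSP6 (ENSBTAG00000004587), SPRY2 (ENSBTAG00000001774) and SPRY4 (ENSBTAG00000008250). The genes were taken by symbol from the deposited feature lists, and all 8 were found among the 35643 features of both libraries.

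In mammalian embryos, FGF4 is made by the epiblast, the lineage that forms the embryo proper, and is secreted. Neighbouring cells bind it through FGF receptors such as FGFR1 and FGFR2, which signal through RAS, RAF and MEK to ERK. ERK signalling favours the hypoblast (primitive endoderm) over the epiblast in the inner cell mass. ETV4 and ETV5 are ETS transcription factors induced by FGF, DUSP6 is a phosphatase that removes the activating phosphates of ERK, and SPRY2 and SPRY4 are Sprouty proteins that dampen receptor tyrosine kinase signalling.

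The study sequenced nuclei of day 8 bovine blastocysts and of blastoids, which are blastocyst-like structures that assemble from cultured stem cells. The blastoids were wild type and were seeded from 8 bEPSC (expanded potential stem cells), 8 bXEN (extraembryonic endoderm cells) and 16 bTSC (trophoblast stem cells) per microwell. Feeder cells (iMEF) were depleted before seeding, and the blastoid medium held LIF at 20 ng/ml, activin A at 10 ng/ml and the GSK3 inhibitor CHIR99021. The protocol in the sources used here is cut short, so whether the medium also held FGF is not known. Blastocysts and blastoids were both stored frozen ahead of nuclei isolation. Each group had 1 library, the number of embryos or blastoids pooled in it is not given in the sources used here, and no treatment was compared.

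With 1 library per group there was no test of blastoid against blastocyst, and no p-value, standard error or SD. A level below is the number of UMIs (unique molecular identifiers, each a counted RNA molecule) of a gene in a class of nuclei, scaled to the total of that class as CPM (counts per 1000000). Its 95% interval is an exact Poisson interval, and the interval of a ratio is the exact interval for 2 Poisson counts. All intervals cover counting error only, not the spread between embryos, blastoids or libraries. The word higher or lower is used where the interval of the ratio excludes 1, and values are given where it does not.

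The blastoid library held 1957 barcodes and 7575395 UMIs, and the blastocyst library 944 barcodes and 7029253 UMIs; 1914 and 828 barcodes were kept. They shared 1 barcode sequence. The median depth differed, at 2012 UMIs per blastoid barcode and 6920 per blastocyst barcode. Of the kept barcodes, 286 from blastoids and 688 from blastocysts had at least 4000 UMIs and are called deep here.

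Clustering gave 4 classes in the blastocyst. A hypoblast-like class held 402 nuclei (median 7590 UMIs), a trophectoderm-like class 233 (median 8760), a class named here NANOG-high 71 (median 10175), and an unnamed shallow cluster 122 (median 1752). Trophectoderm is the outer layer that forms the placenta. The unnamed cluster had 6 raised trophectoderm markers (KRT7, KRT8, KRT18, KRT19, PTGS2, SFN), 3 epiblast and 2 hypoblast markers. It stayed unnamed because it was shallow and none of these was among its leading genes. Its trophectoderm list summed to 7324 CPM, against 3017 CPM in trophectoderm-like nuclei. KRT18 was at 3774 against 833 CPM, and GATA2 at 97.1 against 481 CPM. The NANOG-high cluster had 4 raised epiblast markers (NANOG, SOX2, PRDM14, LIN28B) and 3 raised hypoblast markers (HNF4A, COL18A1, SPARC), too even a split to be called epiblast-like. It also had 2 raised trophectoderm markers (SSLP1, TP63) and 1 neural marker (NES), and the hypoblast-like class had 5 raised epiblast markers (SOX2, PRDM14, DPPA3, OTX2, SUSD2) beside 11 hypoblast markers. The NANOG-high cluster held NANOG at 117 CPM and HNF4A, a hypoblast transcription factor gene, at 561 CPM.

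The blastoid library gave 3 classes. A trophectoderm-like class held 154 nuclei (median 14620 UMIs), and a class named here DCC-high held 139 (median 11063). The latter was led by SRGAP3, MLLT3 and DCC and had 6 raised neural, 4 hypoblast and 2 epiblast markers. The remaining 1621 barcodes (median 1925 UMIs) carried 14.3% ribosomal protein UMIs and are called ribosomal-rich. They had 12 raised hypoblast and 12 raised trophectoderm markers, and the trophectoderm-like class had 5 epiblast and 3 hypoblast markers beside 11 of its own. Neither an epiblast-like nor a hypoblast-like class was found in the blastoid library at these settings. A comparison of ligand and responder classes between the 2 libraries was therefore possible for trophectoderm-like nuclei only.

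FGF4 UMIs were found in 1 class of the 7. When barcodes with at least 200 genes were kept, the unnamed blastocyst cluster held 2 more. The NANOG-high nuclei held 7 FGF4 UMIs, a level of 9.19 CPM (3.69 to 18.9), and 6 of the 71 nuclei carried them. The hypoblast-like, trophectoderm-like and unnamed blastocyst classes held 0, with upper 95% bounds of 1.11, 1.60 and 7.96 CPM. A floor of 3 UMIs per class stands at 0.900, 1.30 and 6.47 CPM. FGF4 was at least 10.2-fold higher in NANOG-high than in hypoblast-like nuclei when the latter were set to that floor, and at least 7.06-fold higher than in trophectoderm-like nuclei. The lower 95% bounds of these ratios, which allow for the small count in NANOG-high nuclei as well, were 6.31 and 4.36. When only barcodes of at least 4000 UMIs were clustered, the level was 6.00 CPM and the fold over the hypoblast-like floor at least 5.72, with a lower bound of 3.53. Gates on pairs of markers gave 5 UMIs (4.44 CPM) against 2, a ratio of 5.81 (0.951 to 61.0) that holds 1. They set nuclei with at least 2 UMIs of NANOG and PRDM14 together against others with at least 2 of HNF4A and PDGFRA. The latter also had under 2 of GATA2 and GATA3.

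The 6 nuclei with FGF4 had 8558 to 16585 UMIs each. Of these 6, 5 also held NANOG and 3 held PRDM14, both epiblast transcription factor genes, and all 6 held HNF4A. Among the NANOG-high nuclei without FGF4, 61.5% held NANOG, 41.5% PRDM14 and 93.8% HNF4A. PRDM14 had a like level in hypoblast-like nuclei, at 58.2 CPM against 61.7 CPM in NANOG-high nuclei. FGFR2 was seen in 1 of the 6, SPRY2 in 3 and SPRY4 in 4.

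No FGF4 UMI was found in the blastoid library. Its trophectoderm-like, DCC-high and ribosomal-rich classes held 0 UMIs, which allows up to 1.24, 1.59 and 0.946 CPM. Over whole libraries the blastocyst held FGF4 at 1.02 CPM, and the blastoid was at least 2.54-fold lower with its floor at 0.401 CPM; the bound with counting error in both was 1.57. Among deep barcodes alone that bound fell to 0.942, so the difference was not detectable at this depth. NANOG, the marker of the class that held FGF4, had 1, 4 and 11 UMIs in the same blastoid classes against 89 in NANOG-high nuclei.

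**Figure D1:**
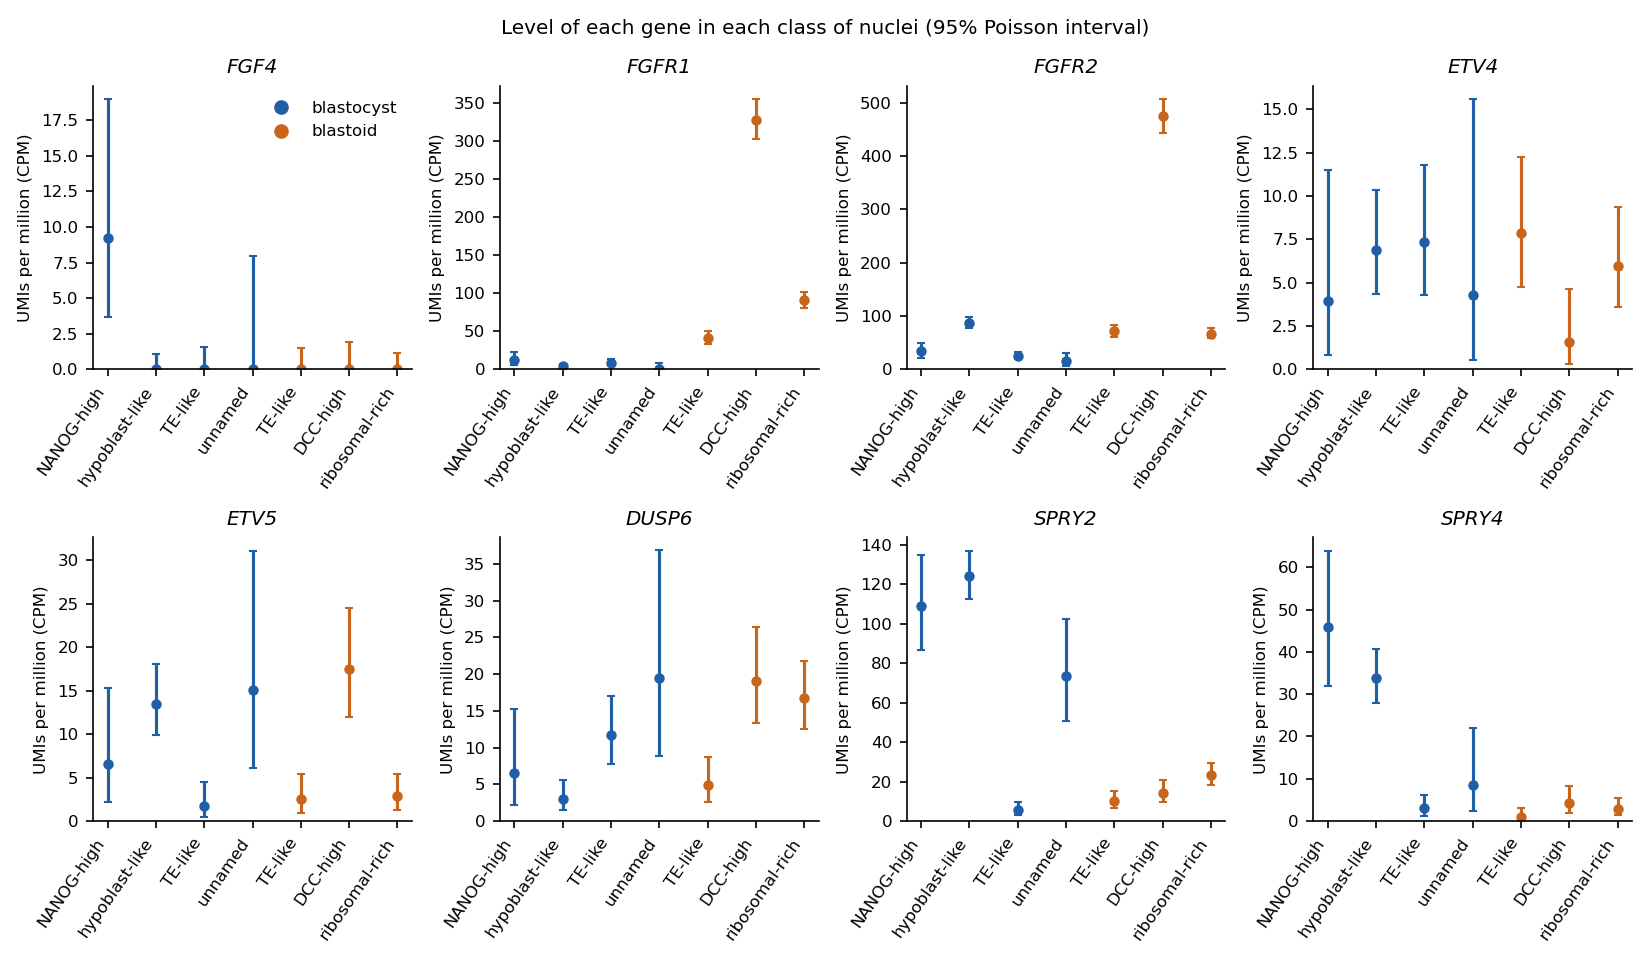
Level of each of the 8 genes in the 4 blastocyst classes (blue) and the 3 blastoid classes (orange), in CPM on a linear axis that starts at 0 and differs between genes. Points are class sums and bars their 95% Poisson intervals; FGF4 is above 0 in NANOG-high nuclei only, FGFR1 and FGFR2 peak in DCC-high nuclei at 328 and 474 CPM, and SPRY2 is highest in the blastocyst classes other than trophectoderm-like. TE-like stands for trophectoderm-like.

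FGFR1 was sparse throughout the blastocyst and abundant in the blastoid. The blastocyst classes held 9 UMIs in NANOG-high nuclei (11.8 CPM, 5.40 to 22.4), 16 in hypoblast-like (4.80 CPM), 20 in trophectoderm-like (8.67 CPM) and 0 in unnamed nuclei. The blastoid classes held 101 UMIs in trophectoderm-like nuclei (41.8 CPM, 34.0 to 50.7), 620 in DCC-high (328 CPM, 303 to 355) and 289 in ribosomal-rich barcodes (91.1 CPM, 80.9 to 102). All 3 blastoid classes lay above all 4 blastocyst classes. In order of level, DCC-high exceeded ribosomal-rich by 3.13-fold to 4.15-fold, ribosomal-rich exceeded blastoid trophectoderm-like 2.18-fold (1.73 to 2.76), and the latter exceeded NANOG-high 3.53-fold (1.79 to 7.95). Among the blastocyst classes, the interval of each ratio between neighbours in rank held 1.

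FGFR2 was present in every class, with 7 to 896 UMIs. In the blastocyst, hypoblast-like nuclei held 291 UMIs (87.3 CPM, 77.5 to 97.9), NANOG-high 26 (34.1 CPM, 22.3 to 50.0), trophectoderm-like 58 (25.2 CPM, 19.1 to 32.5) and unnamed 7 (15.1 CPM). In the blastoid, DCC-high nuclei held 896 (474 CPM, 443 to 506), trophectoderm-like 174 (71.9 CPM, 61.6 to 83.4) and ribosomal-rich 213 (67.1 CPM, 58.4 to 76.8). DCC-high nuclei exceeded the next class, blastocyst hypoblast-like, 5.43-fold (4.75 to 6.22). Blastocyst hypoblast-like nuclei exceeded blastoid trophectoderm-like nuclei by a ratio of 1.21 (1.00 to 1.47), and blastoid trophectoderm-like and ribosomal-rich classes did not differ beyond counting error.

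FGFR1 and FGFR2 were found together in the DCC-high class, where 117 of 139 nuclei held both. After each nucleus was thinned to 2000 UMIs, FGFR1 was detected in 51.4% of DCC-high nuclei (42.8 to 60.0, exact binomial) and FGFR2 in 53.6% (44.9 to 62.1). Without thinning the shares were 92.1% and 89.2%. In blastoid trophectoderm-like nuclei, whose median depth is higher, the thinned shares were 5.33% for FGFR1 and 12.0% for FGFR2. Thinned FGFR2 was detected in 57.7% (45.4 to 69.4) of the DCC-high nuclei with thinned FGFR1 and in 49.3% (36.8 to 61.8) of those without it, intervals that overlap. The neural marker list summed to 7371 CPM in DCC-high nuclei, with 11 of 12 genes detected and SOX1 at 0, against 121 to 412 CPM in the other 6 classes. Of these UMIs, 98.4% came from 5 adhesion and guidance genes (DCC, CTNNA2, NCAM1, ROBO2, NRXN3), and NEUROD1 and NEUROG2 had 1 UMI each. The other 7 genes summed to 116 CPM, against 147 CPM in ribosomal-rich barcodes. The part of these genes in the receptor levels was not tested.

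ETV4 was low in all classes. It had 3, 23, 17 and 2 UMIs in NANOG-high, hypoblast-like, trophectoderm-like and unnamed blastocyst nuclei, or 3.94, 6.90, 7.37 and 4.31 CPM. The blastoid trophectoderm-like, DCC-high and ribosomal-rich classes had 19, 3 and 19 UMIs, or 7.85, 1.59 and 5.99 CPM. No pair of neighbours in the order of levels differed beyond counting error.

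ETV5 was higher in hypoblast-like than in trophectoderm-like nuclei. It had 45 UMIs (13.5 CPM, 9.84 to 18.1) in hypoblast-like nuclei and 4 (1.73 CPM) in trophectoderm-like nuclei, with 5 (6.56 CPM) in NANOG-high and 7 (15.1 CPM) in unnamed nuclei. In the blastoid, 33 UMIs (17.5 CPM, 12.0 to 24.5) fell in DCC-high nuclei, 6 (2.48 CPM) in trophectoderm-like nuclei and 9 (2.84 CPM) in ribosomal-rich barcodes. Within each library the trophectoderm-like class had the lowest ETV5 level, though it did not differ beyond counting error from NANOG-high nuclei in the blastocyst, at a ratio of 3.78 (0.814 to 19.1) for the latter, or from ribosomal-rich barcodes in the blastoid.

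DUSP6 was counted in all 7 classes at 3.00 to 19.4 CPM. The blastocyst held 5 UMIs in NANOG-high (6.56 CPM), 10 in hypoblast-like (3.00 CPM), 27 in trophectoderm-like (11.7 CPM, 7.72 to 17.0) and 9 in unnamed nuclei (19.4 CPM). Of the 9 in the unnamed cluster, 8 came from 1 nucleus. The blastoid held 12 in trophectoderm-like (4.96 CPM), 36 in DCC-high (19.0 CPM, 7 of them in 1 nucleus) and 53 in ribosomal-rich barcodes (16.7 CPM). Neighbours in the order of DUSP6 levels did not differ beyond counting error.

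SPRY2 had its highest levels in the blastocyst classes other than trophectoderm-like. Among these, the unnamed cluster had 6 raised trophectoderm markers, 3 epiblast and 2 hypoblast. Hypoblast-like nuclei held 415 UMIs (124 CPM, 113 to 137), NANOG-high 83 (109 CPM, 86.8 to 135), unnamed 34 (73.3 CPM) and trophectoderm-like 13 (5.64 CPM). The blastoid classes held 25 in trophectoderm-like (10.3 CPM), 27 in DCC-high (14.3 CPM) and 74 in ribosomal-rich barcodes (23.3 CPM). Hypoblast-like, NANOG-high and unnamed blastocyst nuclei, the 3 highest, did not differ between neighbours in rank, and the step from the unnamed blastocyst cluster to ribosomal-rich barcodes was 3.14-fold (2.03 to 4.78).

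SPRY4 had a like distribution over the named classes. It had 35 UMIs in NANOG-high nuclei (45.9 CPM, 32.0 to 63.9), 113 in hypoblast-like (33.9 CPM, 27.9 to 40.7), 7 in trophectoderm-like (3.04 CPM) and 4 in unnamed nuclei (8.63 CPM). The blastoid held 2 in trophectoderm-like nuclei (0.827 CPM), 8 in DCC-high (4.23 CPM) and 9 in ribosomal-rich barcodes (2.84 CPM). The hypoblast-like level exceeded that of the next class, the unnamed cluster, 3.93-fold (1.49 to 14.7).

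**Figure D2:**
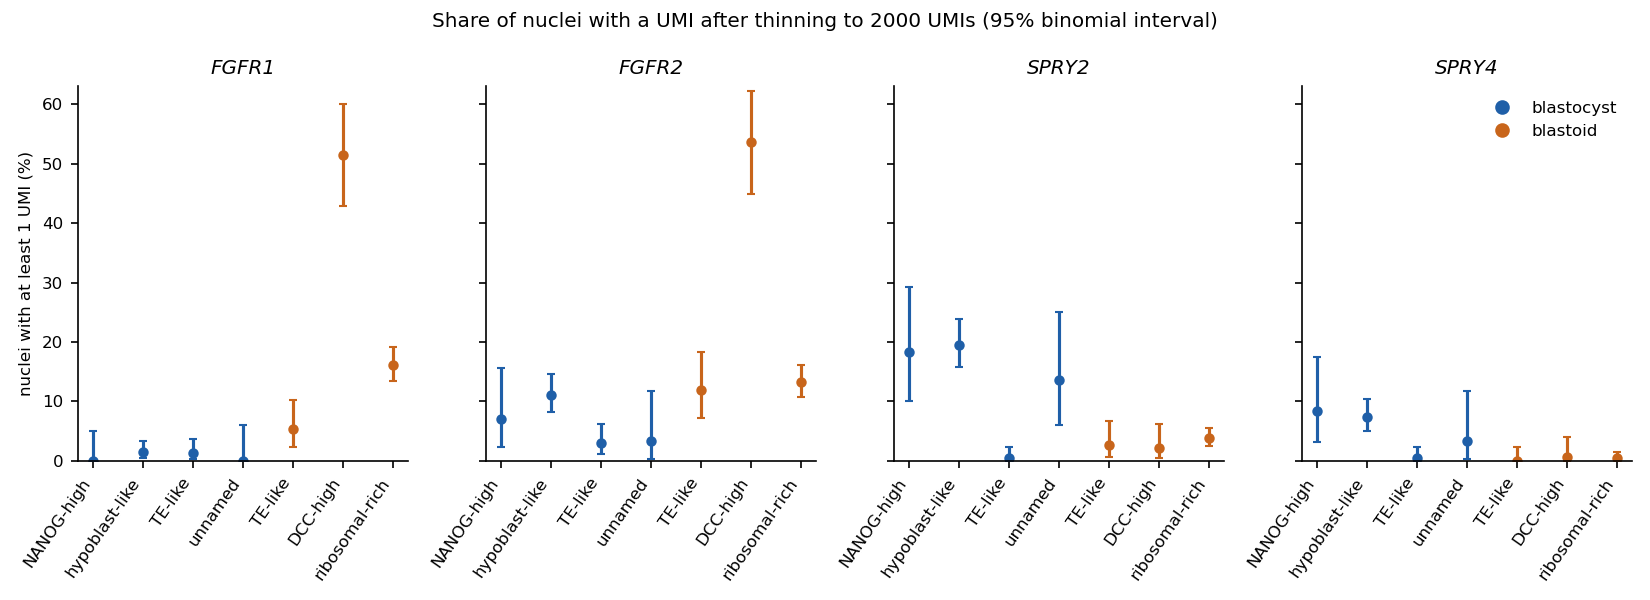
Percent of nuclei with at least 1 UMI of FGFR1, FGFR2, SPRY2 and SPRY4 in each class after thinning every nucleus to 2000 UMIs, with 95% binomial intervals; blastocyst classes are blue and blastoid classes orange. The receptors stand highest in DCC-high nuclei, at 51.4% and 53.6%, and SPRY2 in hypoblast-like and NANOG-high nuclei, at 19.5% and 18.3%.

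SPRY2 was detected in 19.5% (15.7 to 23.8) of hypoblast-like, 18.3% (10.1 to 29.3) of NANOG-high and 0.435% of trophectoderm-like blastocyst nuclei, and in 2.17% of DCC-high and 2.67% of trophectoderm-like blastoid nuclei. Without thinning, it was seen in 49.8%, 53.5% and 4.29% of the same blastocyst classes. SPRY4 was detected in 7.36%, 8.45% and 0.435% after thinning. Thinning left out 936 ribosomal-rich barcodes, 63 unnamed nuclei and at most 8 nuclei of any other class. The part of free RNA in these shares was not tested, since none of the classes is known to lack the genes.

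Within the hypoblast-like class, SPRY2 was seen in 67.9% of the nuclei with FGFR2 and in 41.0% of those without it. The nuclei with FGFR2 were also deeper, at a median of 9397 against 6908 UMIs. After thinning, SPRY2 was detected in 12 of 44 FGFR2-positive nuclei, 27.3% (15.0 to 42.8), and in 65 of 350 others, 18.6% (14.6 to 23.0). The intervals overlap, so a link within nuclei was not detectable at this depth.

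The first comparison asked how responder genes differ between hypoblast-like and trophectoderm-like nuclei of the blastocyst. FGFR2, ETV5, SPRY2 and SPRY4 were all higher in the hypoblast-like class, FGFR2 3.47-fold (2.61 to 4.68), ETV5 7.78-fold (2.84 to 29.8), SPRY2 22.1-fold (12.8 to 41.8) and SPRY4 11.2-fold (5.24 to 28.4). DUSP6 went the other way and was 3.90-fold lower (1.83 to 9.04). The ratio was 0.553 (0.268 to 1.12) for FGFR1 and 0.936 (0.478 to 1.87) for ETV4, and both intervals hold 1.

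A gene is counted below where its 2 class sums hold at least 20 UMIs together, and is past the fold where it differs at least 2-fold. A gene with few UMIs in 1 class can be counted through the other alone. Of the 7 members counted between hypoblast-like and trophectoderm-like nuclei, 4 were past the fold higher and 1 lower. Of those past it, ETV5, SPRY2 and SPRY4 reached 20 UMIs in hypoblast-like nuclei only, and DUSP6 in trophectoderm-like nuclei only. Of all features counted, 17.5% were past it higher and 12.7% lower. The members' median log2 ratio was 1.79 and that of all features 0.22. FGF4 was not counted, having 0 UMIs in both classes.

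SPRY2 and SPRY4 were also higher in NANOG-high than in trophectoderm-like nuclei, 19.3-fold (10.7 to 37.8) and 15.1-fold (6.62 to 40.4). The ratios of FGFR1 at 1.36 (0.546 to 3.13), FGFR2 at 1.36 (0.820 to 2.19), ETV4 at 0.534 (0.100 to 1.85) and DUSP6 at 0.561 (0.169 to 1.48) had intervals that hold 1. Of 6 members counted, 2 were past the fold higher and 0 lower, against 15.7% and 17.1% of all features. Their median log2 ratio was 0.44 for the members and 0.04 for all features. Genes with at least 100 UMIs in both classes had a median log2 ratio of 0.26. Relative to that median, ETV4 and DUSP6 passed the fold as well, giving 2 members higher and 2 lower, and the share of higher among all features past the fold moved from 47.9% to 34.1%.

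NANOG-high and hypoblast-like nuclei differed in FGFR2, which was 2.56-fold lower in the NANOG-high class (1.71 to 3.98). SPRY2 had a ratio of 0.875 (0.683 to 1.11), and SPRY4 one of 1.36 (0.900 to 2.00). FGFR1 and ETV5 passed 2-fold with ratios of 2.46 (0.959 to 5.92) and 0.486 (0.151 to 1.22), intervals that hold 1, and the FGFR1 ratio turned in direction when only barcodes of at least 4000 UMIs were clustered. Of 6 members counted, 1 was past the fold higher and 2 lower, against 5.20% and 5.61% of all features. The median log2 ratio was -0.50 for the members and -0.09 for all features.

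**Figure D3:**
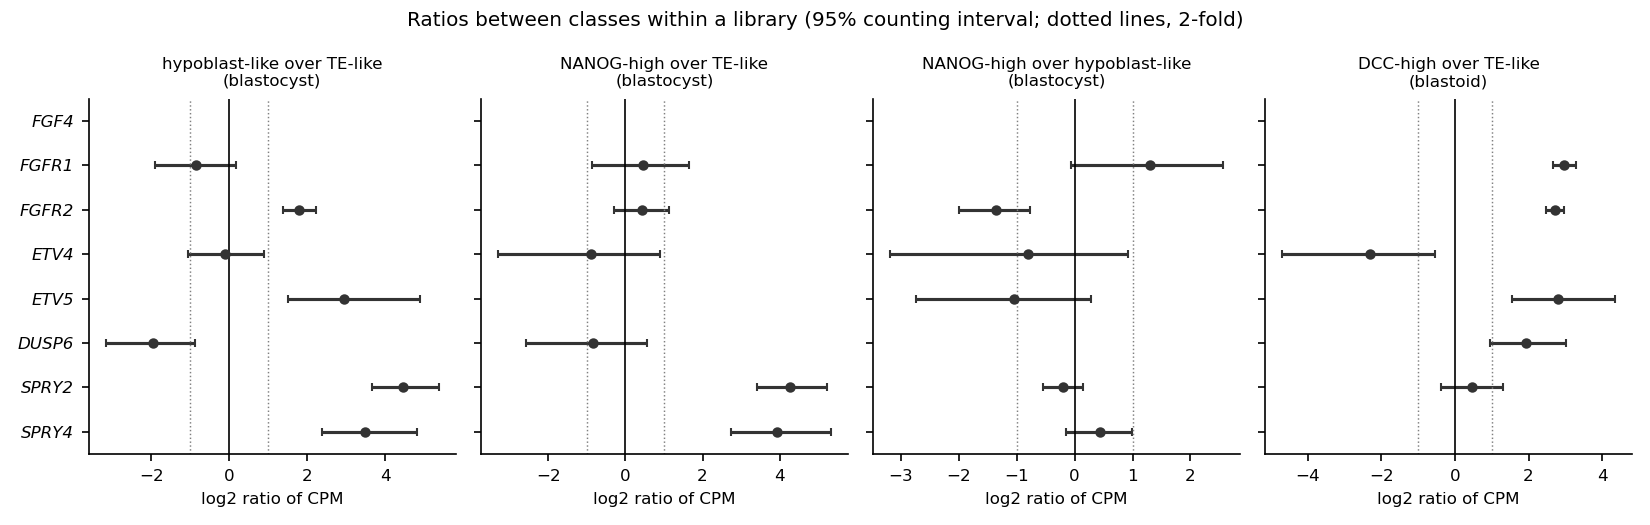
Log2 ratios of the members between classes of the same library, with 95% counting intervals; each panel is 1 pair of classes, the solid line marks no difference and the dotted lines 2-fold. Members with fewer than 20 UMIs in the 2 sums are not drawn; SPRY2 and SPRY4 stand far above 0 in both panels against trophectoderm-like blastocyst nuclei, and FGFR1 and FGFR2 in the blastoid panel.

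In the blastoid, the DCC-high class was set against the trophectoderm-like class. FGFR1 was 7.85-fold higher (6.35 to 9.79), FGFR2 6.59-fold (5.59 to 7.79), ETV5 7.04-fold (2.91 to 20.5) and DUSP6 3.84-fold (1.95 to 8.10). ETV4 had 3 against 19 UMIs, a ratio of 0.202 (0.0383 to 0.686). SPRY2 had a ratio of 1.38 (0.772 to 2.48), and SPRY4, with 8 and 2 UMIs, was not counted. Of 6 members counted, 4 were past the fold higher and 1 lower, against 19.4% and 16.9% of all features. Members had a median log2 ratio of 2.33 and all features one of 0.00. The summed neural markers, 7371 against 273 CPM, moved with these ratios, mainly through those 5 adhesion and guidance genes, and their part was not tested.

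Trophectoderm-like nuclei were the 1 named class found in both libraries. FGFR1 was 4.81-fold higher in those of the blastoid (2.96 to 8.21) and FGFR2 2.86-fold higher (2.11 to 3.92), while DUSP6 was 2.36-fold lower (1.16 to 5.11). The ratio was 1.07 (0.524 to 2.18) for ETV4 and 1.83 (0.903 to 3.90) for SPRY2, and FGF4, ETV5 and SPRY4 had too few UMIs to be counted. Of 5 members counted, 2 were past the fold higher and 1 lower, against 18.6% and 12.8% of all features. Members had a median log2 ratio of 0.87 and all features one of 0.08. Marker lists of other cell types differed between these classes as well. The neural list summed to 273 CPM in the blastoid, 10 of 12 genes detected and SOX1 and NEUROG2 at 0, against 123 CPM and 9 of 12 in the blastocyst, and the epiblast list to 613 against 1285 CPM. The hypoblast list had close sums of 5774 and 5575 CPM, with genes in both directions: AFP had 42.2 CPM against 0 UMIs, while GATA6 had 105 against 545 CPM. Most of both sums came from LRP2, at 3616 and 3162 CPM, and DAB2, at 961 and 839 CPM. In hypoblast-like blastocyst nuclei LRP2 and DAB2 were at 129 and 49.8 CPM. The part of these lists in the receptor ratios was not tested, apart from the nuclei with DCC UMIs described next.

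FGFR1 was unevenly spread over the blastoid trophectoderm-like nuclei. The tenth of nuclei with the most FGFR1 held 59.4% of its UMIs, and 1 nucleus held 13. Without the nuclei that held a DCC UMI, 109 were left, and the log2 ratios of blastoid over blastocyst were 2.28 for FGFR1, 1.49 for FGFR2 and -1.18 for DUSP6, against 2.27, 1.52 and -1.24 with all nuclei. When only barcodes of at least 4000 UMIs were clustered, the blastoid trophectoderm-like FGFR1 level was 30.2 CPM (23.6 to 38.2) over 144 nuclei.

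Over whole libraries, the receptors were higher and the Sprouty genes lower in the blastoid. FGFR1 was at 135 CPM against 6.55 CPM, 20.6-fold higher (15.3 to 28.4), and FGFR2 at 171 against 55.6 CPM, 3.08-fold higher (2.75 to 3.46). SPRY2 was at 16.8 against 79.4 CPM, 4.71-fold lower (3.88 to 5.77), and SPRY4 at 2.54 against 23.2 CPM, 9.12-fold lower (5.65 to 15.5). DUSP6 was 1.82-fold higher (1.29 to 2.60). The ratios of ETV4, 0.836 (0.534 to 1.31), and ETV5, 0.722 (0.484 to 1.07), had intervals that hold 1.

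Of 7 members counted over whole libraries, 2 were past the fold higher and 2 lower, against 23.2% and 20.0% of all features. The median log2 ratio was -0.26 for the members and -0.09 for all features. For genes that reached 100 UMIs in each of the libraries, the median was -0.25. Measured from that median, 3 members were higher, DUSP6 being added, and 2 lower, and the share of higher among all features past the fold moved from 53.7% to 64.9%. A whole library mixes classes, so a smaller number of nuclei of a class and less RNA of the gene per nucleus cannot be told apart in these ratios.

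The 4 members past the fold over whole libraries were also past it among deep barcodes. FGFR1 was 25.5-fold higher in the blastoid (18.7 to 35.6), FGFR2 4.38-fold higher (3.89 to 4.94), SPRY2 6.64-fold lower (4.97 to 9.04) and SPRY4 9.09-fold lower (4.94 to 18.6). DUSP6 had a log2 ratio of 0.58 (-0.02 to 1.19). The ratio was 0.765 (0.437 to 1.30) for ETV4 and 1.03 (0.667 to 1.57) for ETV5. Of 7 members counted, 2 were past the fold higher and 2 lower, against 19.9% and 14.8% of all features. The median log2 ratio was 0.04 for the members and 0.03 for all features.

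**Figure D4:**
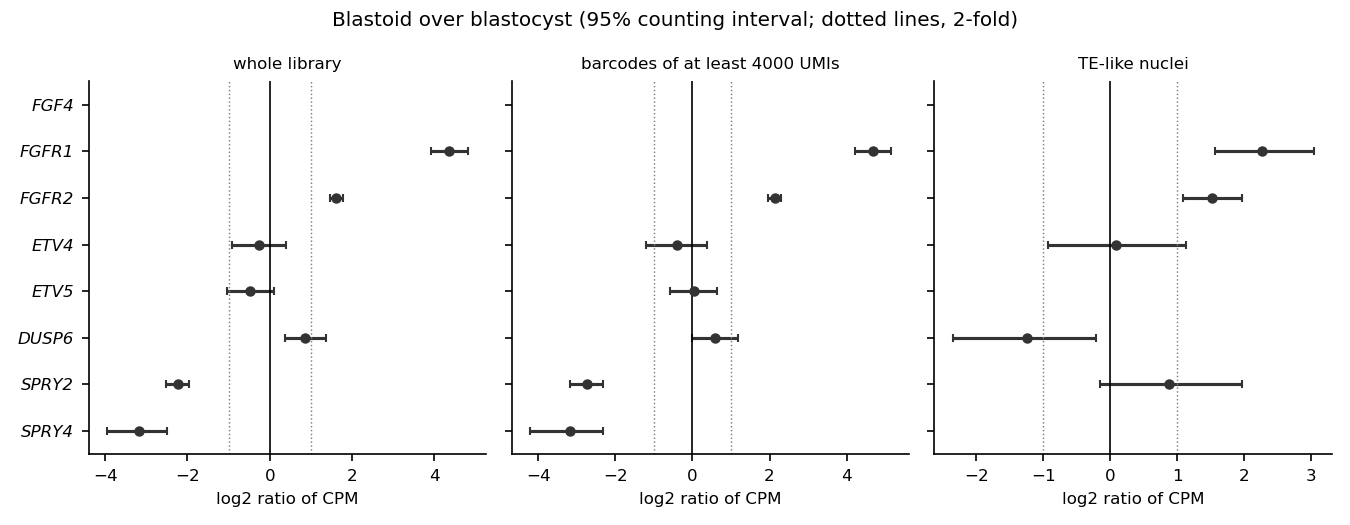
Log2 ratios of blastoid over blastocyst for the members over whole libraries, over barcodes of at least 4000 UMIs and over trophectoderm-like nuclei, with 95% counting intervals; the solid line marks no difference and the dotted lines 2-fold. FGFR1 and FGFR2 lie to the right in all 3 panels, and SPRY2 and SPRY4 to the left in the panels where both are drawn.

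A small blastoid cluster led by hypoblast genes appeared when only barcodes of at least 4000 UMIs were clustered. It held 14 nuclei (344919 UMIs, median 16528), led by HNF4A, GATA4 and FGF10, with 6 raised hypoblast markers and 1 trophectoderm marker. HNF4A was in 4 of the 14 nuclei, while GATA2, a trophectoderm gene, was in 11 and DCC in 10. Against blastocyst hypoblast-like nuclei of at least 4000 UMIs, hypoblast genes were mixed. GATA6 was 11.7-fold lower (8.19 to 17.4), FN1 12.2-fold lower (10.2 to 14.8), and PDGFRA had 3 UMIs against 1056 and SOX17 0 against 35. APOE was 7.82-fold higher (4.71 to 13.0) and GATA4 1.99-fold higher (1.22 to 3.13), its 24 UMIs lying in 4 of the 14 nuclei, while HNF4A was 3.16-fold lower (2.43 to 4.18) and the ratio of COL18A1 was 0.760 (0.519 to 1.08). At the settings used above, 10 of them lay in the DCC-high class, 3 in the trophectoderm-like class and 1 among the ribosomal-rich barcodes.

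In these 14 nuclei FGFR1 was at 249 CPM (199 to 308) and FGFR2 at 223 CPM (176 to 279), in 12 and 13 of the nuclei. They were set against the 330 blastocyst hypoblast-like nuclei of at least 4000 UMIs, which hold 2862213 UMIs in all and so are shallower per nucleus. FGFR1 was 39.6-fold higher (23.7 to 70.0) and FGFR2 2.53-fold higher (1.93 to 3.27). SPRY2 had 6 UMIs, 17.4 CPM, and was 6.85-fold lower (3.11 to 18.8) than the 119 CPM of those blastocyst nuclei. DUSP6 had 5 UMIs against 6 and was 6.92-fold higher (1.67 to 27.2), and ETV5 had a ratio of 1.16 (0.403 to 2.73). SPRY4 had 1 UMI, and FGF4 and ETV4 had 0. The receptor FGFR4 and the coreceptor KLB were also at 0 UMIs there, which allows up to 8.70 CPM.

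Subclusters of the hypoblast-like nuclei held all the members but FGF4. At a higher clustering resolution 3 subclusters of 124, 115 and 114 nuclei held FGFR2 at 74.5, 125 and 76.2 CPM. SPRY2 was at 93.8, 136 and 111 CPM in the same order, and SPRY4 at 35.2, 29.9 and 29.5 CPM. FGFR2 was highest in the second of these, the intervals of SPRY2 in the second and the last overlapped, and FGF4 had 0 UMIs in all 3.

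The wider pathway was described with 8 gene lists of 119 genes in all. Its receptor list holds 7 genes, including FGFR3, FGFR4, the decoy receptor FGFRL1 and the coreceptors KLB and KL. In the blastocyst, FGFR4 was at 107 CPM in hypoblast-like, 57.8 in NANOG-high and 15.2 in trophectoderm-like nuclei, 7.07-fold higher (4.99 to 10.3) in the first than in the last. KLB, which partners FGF receptors for endocrine FGFs, was 7.71-fold higher (3.57 to 19.8) in hypoblast-like than in trophectoderm-like nuclei. Of 6 receptor genes counted there, 3 were past the fold higher and 0 lower, against 17.5% and 12.7% of all features, with a median log2 ratio of 1.35.

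FGFR4 had 2 UMIs in the blastoid library against 466 in the blastocyst and was 254-fold lower (69.9 to 2103). KLB was 10.4-fold lower (5.39 to 22.3), with 10 against 95 UMIs. Over whole libraries, 2 of 6 receptor genes counted were past the fold higher, the members FGFR1 and FGFR2, and 2 lower, FGFR4 and KLB, against 23.2% and 20.0% of all features, with a median log2 ratio of 0.00.

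The list of FGF genes holds 22, of which FGF11, FGF12, FGF13 and FGF14 encode intracellular homologous factors that are not secreted ligands, a split made after the values were seen. Between hypoblast-like and trophectoderm-like nuclei, 6 of 8 counted were past the fold higher and 0 lower, against 17.5% and 12.7% of all features, with a median log2 ratio of 2.14. Without the 4 intracellular factors, 5 of 5 were higher. Of these, FGF1, FGF9, FGF19 and FGF21 reached 20 UMIs in hypoblast-like nuclei only. FGF1 was 5.68-fold higher (3.52 to 9.69), and FGF19 had 33 UMIs against 1. FGF19 and the intracellular FGF12 were higher in NANOG-high than in hypoblast-like nuclei, by 3.45-fold (1.98 to 5.94) and 3.05-fold (2.49 to 3.73). In the blastoid, 7 of 7 FGF genes counted, 4 of them secreted ligands, were past the fold higher in DCC-high nuclei, against 19.4% of all features, with a median log2 ratio of 2.79. The neural markers given above for this class moved with this count. Of the 7 genes, FGF1, FGF10, FGF14 and FGF19 reached 20 UMIs in DCC-high nuclei only. There 65 UMIs of FGF10 (34.4 CPM) stood against 2 in trophectoderm-like nuclei.

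Over whole libraries, 4 of 11 FGF genes counted were past the fold higher in the blastoid and 3 lower, against 23.2% and 20.0% of all features, with a median log2 ratio of 0.34. For the secreted ligands the count was 3 higher and 3 lower of 8. FGF8, with 121 UMIs against 1, and FGF10, 12.8-fold higher (5.66 to 36.0), were the highest with counts under 3 set to 3. FGF17 had 1, 2 and 17 UMIs in blastoid trophectoderm-like, DCC-high and ribosomal-rich classes and 0 in the blastocyst classes. FGF8 lay mainly in ribosomal-rich barcodes, with 104 UMIs (32.8 CPM). FGF9 was 17.4-fold lower (7.17 to 55.2) and FGF21 6.10-fold lower (2.33 to 20.2).

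**Figure D5:**
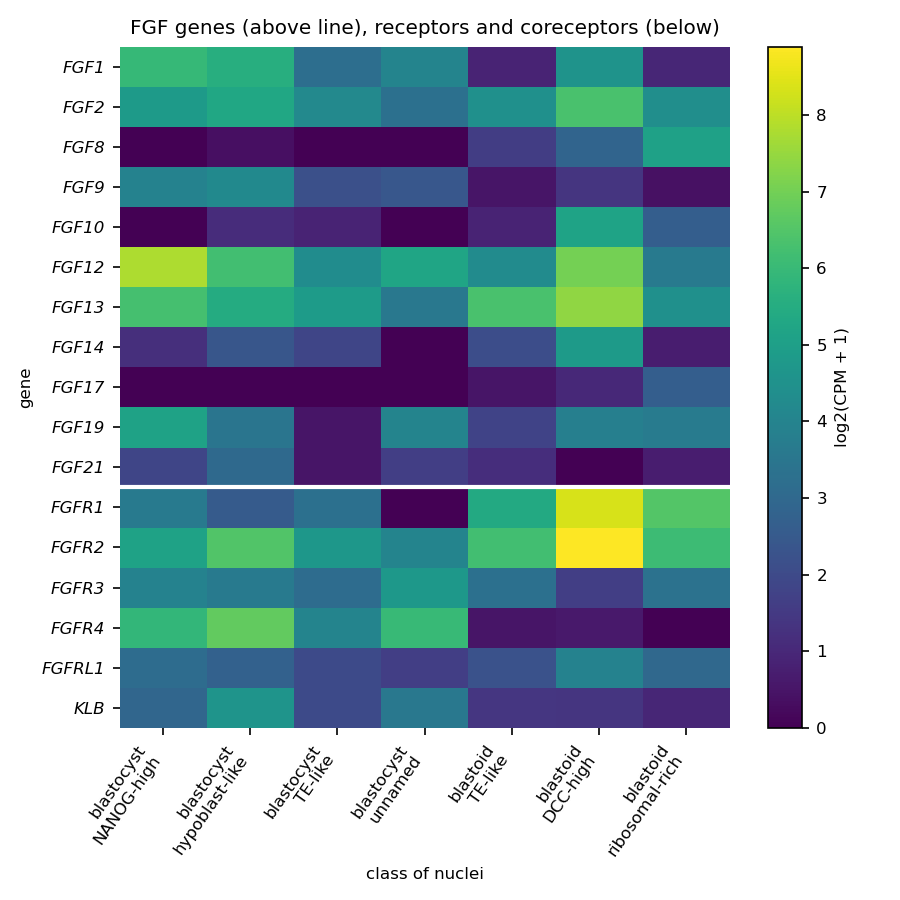
Levels of the FGF genes (above the white line) and of the receptor and coreceptor genes (below it) with at least 20 UMIs over the 7 classes, as log2(CPM + 1) on a colour scale; columns are classes and rows are genes. FGFR1 and FGFR2 are brightest in blastoid DCC-high nuclei, where FGFR4 is near 0, and FGFR4 is brightest in the blastocyst hypoblast-like column.

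Feedback inhibitors were mixed in direction. The list holds 14 genes including DUSP6, SPRY2 and SPRY4. Between hypoblast-like and trophectoderm-like nuclei, 3 of 10 counted were past the fold higher and 3 lower, against 17.5% and 12.7% of all features, with a median log2 ratio of 0.75. DUSP5, a phosphatase of ERK in the nucleus, had 34 UMIs against 1. SPRED1, a Sprouty-related inhibitor of RAS signalling, was 3.25-fold lower in hypoblast-like nuclei (2.90 to 3.66), and CBL, which marks receptors for degradation, 2.74-fold lower (2.41 to 3.13).

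SPRY1, a Sprouty gene outside the 8 members, went against SPRY2 and SPRY4 over whole libraries, with 46 blastoid UMIs against 2 in the blastocyst, a ratio of 21.1 (5.52 to 179). IL17RD, a membrane inhibitor of FGF receptors, was 4.34-fold higher in the blastoid library (3.35 to 5.69) and 21.7-fold higher in DCC-high than in blastoid trophectoderm-like nuclei (13.1 to 38.5). In that comparison of blastoid classes 4 of 9 feedback genes counted were past the fold higher and 1 lower, against 19.4% and 16.9% of all features, with a median log2 ratio of 0.92. Over whole libraries 3 of 12 were higher and 3 lower, near the 23.2% and 20.0% of all features, with a median of 0.06. The neural markers given above moved with this and every other comparison of DCC-high with blastoid trophectoderm-like nuclei, and their part was not tested.

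The list of ERK-induced transcription factors and targets holds 13 genes, ETV4 and ETV5 among them. Between hypoblast-like and trophectoderm-like nuclei, 4 of 11 counted were past the fold higher and 1 lower, against 17.5% and 12.7% of all features, with a median log2 ratio of 0.72. EPHA4, an ephrin receptor gene, was 21.9-fold higher in hypoblast-like nuclei (15.4 to 32.2), and MYC 7.23-fold lower (2.42 to 29.1). In the blastoid, ETV1, the ETS gene related to ETV4 and ETV5, had 21 UMIs in DCC-high and 4 in trophectoderm-like nuclei, a ratio of 6.72 (2.27 to 26.9). There 3 of 12 counted were past the fold higher and 3 lower, against 19.4% and 16.9% of all features, with a median of -0.15. CCND1, the cyclin D1 gene, was 16.2-fold higher in blastoid than in blastocyst trophectoderm-like nuclei (8.32 to 36.1).

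A further list holds genes of the cascade between receptor and ERK. Of 21 adaptor and cascade genes, all counted between hypoblast-like and trophectoderm-like nuclei, 0 were past the fold higher and 3 lower, against 17.5% and 12.7% of all features, with a median log2 ratio of 0.07. GAB1, a docking protein of receptor tyrosine kinases, had a ratio of 0.233 (0.207 to 0.262), and KSR1, a scaffold of the RAF-MEK-ERK module, one of 0.345 (0.311 to 0.382).

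Genes with the highest Pearson's r to a member on log2(CPM + 1) were sought over 7 class sums from 2 libraries, as a description. The search covered 7296 genes (7297 for ETV5, DUSP6 and SPRY4), and r does not compare the size of changes. The 3 nearest to FGFR1 were HOXD3 (r = 0.991), COL4A5 (0.960) and CEMIP2 (0.959). Those nearest to FGFR2 were LRCH2 (0.974), MRPL22 (0.971) and LRRC49 (0.969). ETV5 was most like SH3BP5L (0.980), HAUS3 (0.943) and DGKB (0.924), and DUSP6 most like FAM3C (0.958), PPA1 (0.928) and PSMD11 (0.866). SPRY2 was most like A2M (0.981), PTDSS1 (0.971) and YIPF4 (0.970), and SPRY4 most like PNN (0.980), BCNT2 (0.977) and SEL1L3 (0.970). Some of these genes were nearly flat. PNN lay at 376 to 581 CPM where SPRY4 ran from 0.827 to 45.9 CPM. MRPL22 lay at 58.2 to 109 CPM where FGFR2 ran from 15.1 to 474 CPM. PSMD11 lay at 35.7 to 56.1 CPM where DUSP6 ran from 3.00 to 19.4 CPM. Others were not, such as HOXD3 at 0 to 482 CPM where FGFR1 ran from 0 to 328 CPM. FGF4 and ETV4 had under 100 UMIs and were not compared.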

How the data were processed

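The deposited values are raw UMI counts per gene and barcode for 2 single-nucleus libraries, 1 of blastoids and 1 of day 8 blastocysts. Per the file headers they come from Cell Ranger 7.2.0, while the submitters' processing notes name Cell Ranger 7.1.0 and Seurat 4.3.0. The genome build, and whether intronic reads were counted, are not given in the sources used here, so no coordinates are given.

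Barcodes with at least 500 genes and under 10% mitochondrial UMIs (13 genes) were kept. Doublets were removed by Scrublet score at 0.8% per 1000 barcodes, 30 blastoid and 5 blastocyst barcodes. Each library was clustered alone with scanpy 1.11.5 and leidenalg 0.10.2 (2000 variable genes without marker and pathway genes, 30 components, 15 neighbours, resolution 0.5). A marker counted with at least 100 UMIs and 1.5 times the CPM of the other clusters. A class needed at least 3 markers and 1.5 times as many as any other class, and ribosomal-rich means over 5% ribosomal protein UMIs. A cluster far shallower than its library also needed a marker of its class among its leading genes. The unnamed blastocyst cluster, with 6 trophectoderm, 3 epiblast and 2 hypoblast markers, had none there. This naming rule was chosen after names had been seen. The clusters with the highest NANOG and DCC levels were named by those genes if otherwise unnamed, epiblast-like or neural-like. With 6 neural and 4 hypoblast markers, the DCC-high cluster met the rule for neural-like at 1.5 but not at 2. A factor of 2 gave the same names, which for NANOG-high and DCC-high could not have come out otherwise. The planned epiblast-like comparisons used the NANOG-high cluster, since no cluster earned that name. The epiblast markers POU5F1, DPPA5, TDGF1, UTF1, L1TD1 and ARGFX had no matching symbol and were not analysed here.

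UMIs were summed per class. Poisson, ratio and Clopper-Pearson intervals (95%) came from scipy 1.17.1, with counts under 3 set to 3 for counts of genes past a fold and list medians. The scripts were tested on simulated data. Genes of the lists were named by rule, as the 2 highest and 2 lowest of each list and comparison among those counted; a few others were named after their values were seen. The members, lists and settings were chosen with earlier results of these data known. There were 16 planned and 3 added alternatives.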

Additional observations from a re-analysis of the deposited data

How the results depend on the processing

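No paired analysis was possible because each group had 1 library. Of the members' levels, 454 stayed within their interval under the alternatives and 10 moved; of the ratios between blastocyst classes, 206 did so and 2 moved. Over whole libraries 43 ratios stayed and 6 moved. Of the shares of nuclei with a UMI, 217 stayed and 79 moved, mainly with the thinning depth. The FGFR1 ratio of NANOG-high over hypoblast-like nuclei reversed, to -0.069 on the log2 scale, when barcodes needed at least 4000 UMIs. FGF4 kept all 7 UMIs in the NANOG-high cluster in each clustering tried. Keeping barcodes with at least 200 genes added 2 in the unnamed cluster. Gates on pairs of markers put 5 in their NANOG-high group and 2 in hypoblast nuclei. At resolution 1.0 a further blastocyst cluster of 107 nuclei earned the name epiblast-like and held 0 FGF4 UMIs, which allows up to 4.64 CPM.

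Counts of members past the fold, which are small, depended on the filter, and the causes were not tested. A percentage in brackets is the share of all features past the fold in that comparison, direction and setting, where it was computed. NANOG-high over hypoblast-like had 1 higher and 2 lower. The higher count was 0 with at least 200 or 1000 genes, resolution 1.0 (4.56%) or marker gates (2.24%). It was also 0 with 4000 UMIs or features of at least 100 UMIs (2.69%), and 3 with no filter (38.0%). The lower count was 1 with 200 genes, resolution 1.0 (6.47%), 4000 UMIs or 100 UMIs (2.52%), and 0 with gates (2.73%). NANOG-high over trophectoderm-like had 2 higher, which became 0 at 100 UMIs (11.4%) and 4 with no filter (44.0%). It had 0 lower, which became 1 with gates (15.2%) or 4000 UMIs. The lower count was 2 with median scaling (22.4%) or a fold of 1.5 (26.2%). Hypoblast-like over trophectoderm-like had 1 lower, which became 0 at 100 UMIs (11.6%) and 2 at a fold of 1.5 (19.3%). DCC-high over trophectoderm-like had 4 higher and 1 lower, which became 2 and 0 at 100 UMIs (15.7% and 16.3%). Blastoid over blastocyst trophectoderm-like had 1 lower, which became 0 at 100 UMIs (11.4%) and 2 with no filter (10.1%).

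Counts of the 94 other genes of the lists, without those for other receptor tyrosine kinases, moved as follows; each count is given of the genes counted there. Over all features and comparisons, 2.69% to 21.0% were past the fold higher at 100 UMIs, 12.6% to 44.0% with no filter, 11.4% to 31.2% at a fold of 1.5 and 2.24% to 21.1% with gates, against 5.20% to 23.2% as reported. The shares lower were 2.52% to 18.0%, 3.06% to 16.0%, 17.3% to 32.5% and 2.73% to 15.2% in that order, against 5.61% to 20.0%. Of 65 counted, NANOG-high over hypoblast-like had 7 higher and 3 lower. The higher became 3 of 36 at 100 UMIs, 3 of 66 with gates, 23 of 86 with no filter and 11 at 1.5. All features had 2.69%, 2.24%, 38.0% and 11.4% there. The lower became 0 of 36 at 100 UMIs and 13 at 1.5, against 2.52% and 17.3% of all features. Of 58, NANOG-high over trophectoderm-like had 19 higher (8 of 33 at 100 UMIs, 40 of 87 with no filter). All features had 11.4% and 44.0% at these settings. Of 68, hypoblast-like over trophectoderm-like had 19 higher (9 of 43 at 100 UMIs, 31 at 1.5) and 7 lower (13 at 1.5). All features had 13.4% and 30.8% higher and 19.3% lower at these settings. Of 68, DCC-high over trophectoderm-like had 21 higher (13 of 43 at 100 UMIs) and 9 lower (4 of 43 at 100 UMIs, 19 at 1.5). All features had 15.7% higher, and 16.3% and 26.6% lower, at these settings. Of 60, trophectoderm-like nuclei had 11 higher in the blastoid (4 of 36 at 100 UMIs, 17 of 65 with gates). They had 6 lower (3 of 36 at 100 UMIs, 11 at 1.5). All features had 13.7% and 21.1% higher, and 11.4% and 21.6% lower, at these settings. Of 79, whole libraries had 14 lower (28 at 1.5, 9 with median scaling), where all features had 32.5% and 15.0%. Of 76, deep barcodes had 15 higher (23 at 1.5) and 11 lower (5 of 56 at 100 UMIs, 21 at 1.5). All features had 29.2% higher, and 12.6% and 25.1% lower, at these settings.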

Other observations

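Of 15 counted genes for other receptor tyrosine kinases and their ligands, 4 were past the fold higher and 5 lower in hypoblast-like than in trophectoderm-like blastocyst nuclei, against 17.5% and 12.7% of all features. KIT and PDGFRA, a receptor gene used as a hypoblast marker, were 25.8-fold (20.0 to 33.7) and 27.6-fold (19.2 to 41.0) higher there. PDGFA, a ligand gene of that receptor, was 20.0-fold lower (8.81 to 56.1) and ERBB3 10.2-fold lower (5.57 to 20.6). Over whole libraries PDGFRA was 42.7-fold lower (30.7 to 61.2) and KIT 20.3-fold lower (17.2 to 24.1) in the blastoid. EGFR was 6.93-fold lower (5.94 to 8.12) in DCC-high than in blastoid trophectoderm-like nuclei.

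Heparan sulfate proteoglycans bind FGFs at the cell surface. The glypican gene GPC4 had 62 UMIs (81.4 CPM) in NANOG-high and 3 in hypoblast-like nuclei, a ratio of 90.5 (29.5 to 451), and GPC4 also led the genes of the NANOG-high cluster. GPC6 was 53.7-fold higher (38.0 to 78.3) in DCC-high than in blastoid trophectoderm-like nuclei. Among immediate early genes, which ERK induces within minutes of a stimulus, FOS was 6.99-fold lower (4.16 to 12.6) in DCC-high than in blastoid trophectoderm-like nuclei, and 0 of 6 counted there were past the fold higher and 3 lower, against 19.4% and 16.9% of all features.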
